A study of Mus musculus with 8 samples.

Results

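The genes described here are 35 mouse genes of amino acid transport and of the stress response to amino acid shortage. They were chosen by name, not by a measured value, and comprised 12 stress factors, 8 enzymes of amino acid and one-carbon synthesis, and 15 amino acid carriers. Their RNA was measured on 8 Illumina bead arrays of female mouse pre-iPSCs, which are cells stalled partway through reprogramming, here made from neural stem cells of strain 129/MF1. All 4 groups carried an Oct4-GFP reporter, grew in serum with LIF, had been stably transfected with PiggyBac vectors bearing a CAG promoter, had been selected with hygromycin, blasticidin or both and were taken at day 0. The EV group carried empty vectors only, the Nanog group Nanog and an empty vector, the Sin3a group Sin3a and an empty vector, and the Nanog+Sin3a group both transgenes. Each group had 2 arrays. Whether the 2 arrays of a group represent independent cultures, and whether a line was a clone or a pool, is not stated, so every p-value measures only the spread between arrays.

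Of the 35 genes, 33 had a probe among the 19057 gene symbols of the array annotation, and no probe was listed here for Pycr1 or Slc7a5. The values are deposited intensity in linear units after background subtraction. They were raised to a floor of 16 and converted to log2, and a gene was tested if it exceeded the floor on at least 2 arrays. In 7 arrays, 29 of the 35 genes were tested among 12886 features, and Atf3, Psph, Slc7a1 and Slc1a5 had a probe but too little signal. Slc1a1 and Slc38a1 entered the test without exceeding the floor on either EV array, so their differences from EV are set in part by that filter, and neither passed the test. Each symbol is represented by its brightest probe. Since probes differ in how strongly they bind, levels are compared between arrays for the same gene and not between genes. With so few arrays a lack of overlap between groups is common. Of the 12886 features, 3231 lay wholly above EV with Nanog and 3164 wholly below, and 3543 and 3454 with Nanog plus Sin3a. Over 8 arrays, all arrays with Nanog lay above all without it for 1287 of 13687 features and below for 670.

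Cells that run short of an amino acid, or whose endoplasmic reticulum is overloaded, phosphorylate the translation factor eIF2. General protein synthesis then slows while the transcription factor ATF4 is translated more. ATF4, often paired with a C/EBP protein, binds composite elements in its target genes and raises the RNA of amino acid carriers, of enzymes that make serine, glycine, asparagine and proline, and of factors such as Ddit3, Trib3 and Chac1. Pluripotent cells are known for a high demand for amino acids. Nanog is a homeobox transcription factor of pluripotent cells, and Sin3a holds together a co-repressor complex with histone deacetylases. The comparisons ask how each transgene, and the addition of Sin3a to Nanog, altered RNA levels at day 0.

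The transgenes followed the labels. Nanog intensity was 289.5, 285.2, 364.8 and 485.8 on the 4 arrays with the Nanog transgene and below 0 on the other 4. Sin3a intensity was between 1141.6 and 1484.7 on the arrays with its transgene and between 261.8 and 472.5 on the others. Pou5f1, which encodes Oct4, was present on all 8 arrays at 867.1 to 1167.3, while Sox2 exceeded the floor on only 2. Of 10 neural stem cell markers, 4 were at the floor on 7 arrays, Pax6, Olig2, Fabp7 and Slc1a3, while Vim read 2199.9 to 2973.3 and Egfr 371.7 to 695.7 on all 8 and Nes 57.7 to 105.6 on 7. The second Sin3a array stood apart. Its correlation with the first Sin3a array over all tested features was 0.799, against 0.985 to 0.994 within the other groups. Of the 29 tested genes, 10 differed by more than 1 log2 unit between the Sin3a arrays, against 0 in EV, 1 in Nanog and 1 in Nanog+Sin3a. Comparisons that do not involve the Sin3a group were therefore fitted on the other 7 arrays, as was that of arrays with against without Nanog. In these fits the lone Sin3a array was assumed to vary like the other groups. Comparisons of the Sin3a group with another group, and of its effect with and without Nanog, were fitted on all 8 arrays. They covered the 2300 features with a mean log2 above 9, among them 6 of the 35 genes.

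**Figure D1:**
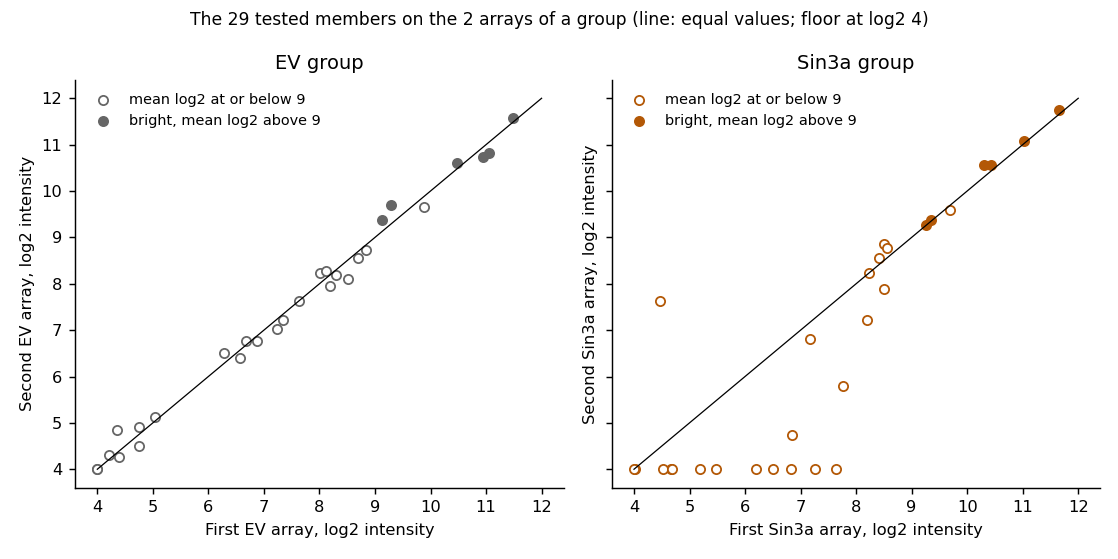
Log2 intensity of the 29 tested genes on the first array (horizontal axis) and the second array (vertical axis) of the EV group (left) and the Sin3a group (right); filled points are the 6 genes with a mean log2 above 9 and the line marks equal values. The EV points follow the line, while 10 of the Sin3a points lie more than 1 log2 unit from it and the 6 bright genes stay close to it.

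The carriers held both the largest rise and the largest fall among the 29 genes. Slc7a3, which carries the cationic amino acids arginine and lysine, fell with Nanog and with Nanog plus Sin3a. Slc3a2, the heavy chain that brings several light-chain carriers to the plasma membrane, fell with Nanog plus Sin3a. Slc7a7, a light chain that exports cationic amino acids in exchange for neutral ones, rose in both Nanog groups, and Slc7a11, the light chain of the cystine and glutamate exchanger, rose with Nanog plus Sin3a.

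Slc7a3 read 945.9 and 806.8 on the EV arrays, 377.5 and 342.5 on the Nanog arrays, 828.8 and 766.2 on the Sin3a arrays and 252.5 and 263.4 on the Nanog+Sin3a arrays. All 4 arrays with Nanog lay below all 4 without it, and the groups did not overlap. Against EV, Slc7a3 fell by 1.28 on the log2 scale with Nanog (SE 0.11, a 2.43-fold lower level, adjusted p = 0.00546) and by 1.76 with Nanog plus Sin3a (SE 0.11, 3.39-fold lower, adjusted p = 0.00200), by limma with Benjamini-Hochberg adjustment over all features. Its second probe was near the floor, at 20.4 and 14 on the EV arrays and 3.2 to 49.3 on the 4 Nanog arrays, and did not show the fall (log2 differences 0.47 and 0.64, not passing). The fall therefore rests on the brighter probe.

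Slc7a7 read 27 and 22.6 in EV, 70.9 and 72.3 in Nanog, 36.6 and -9.6 in Sin3a and 65.1 and 74.6 in Nanog+Sin3a. The 4 arrays with Nanog were the highest, with no overlap with the others. The log2 rise over EV was 1.54 with Nanog (SE 0.19, 2.90-fold, adjusted p = 0.0143) and 1.50 with Nanog plus Sin3a (SE 0.19, 2.82-fold, adjusted p = 0.0105). A second Slc7a7 probe, at 30.5 and 27.6 in EV, had log2 differences of 0.85 and 0.92 in the same direction without passing the test.

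Slc7a11 read 149.8 and 130.9 in EV, 175.8 and 204 in Nanog, 198.1 and 14.9 in Sin3a and 261 and 267.1 in Nanog+Sin3a. The Nanog+Sin3a arrays were the highest of the 8, and the Nanog arrays lay between them and EV. Its log2 difference from EV was 0.91 with Nanog plus Sin3a (SE 0.13, 1.89-fold, adjusted p = 0.0156) and 0.44 with Nanog alone, which did not pass (adjusted p = 0.147). A second probe of Slc7a11 gave 0.92 and 0.59.

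Slc3a2 read 102.2 and 108 in EV, 64.2 and 65.1 in Nanog, 114.2 and 13.4 in Sin3a and 65.7 and 51 in Nanog+Sin3a. The EV arrays lay above all 4 Nanog arrays, and the lowest reading came from the noisy Sin3a array. The fall with Nanog plus Sin3a was 0.86 on the log2 scale (SE 0.18, 1.82-fold lower, adjusted p = 0.0404), and the difference with Nanog alone was -0.70 and did not pass (adjusted p = 0.104). The Slc3a2 protein pairs with Slc7a7 and with Slc7a11 in the membrane. With Nanog plus Sin3a the RNA of the heavy chain fell and that of both light chains rose.

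The other 8 tested carriers did not pass against EV. Slc1a4, which carries alanine, serine and cysteine, read 77.4 and 91.6 in EV, 112.4 and 125.4 in Nanog and 135.6 and 120.1 in Nanog+Sin3a, with log2 differences of 0.50 and 0.60 (adjusted p = 0.164 and 0.0750) and no overlap between EV and either group. Slc1a1, a glutamate and cysteine carrier, had differences of 0.75 and 0.62 from EV arrays that were at the floor (adjusted p = 0.228 and 0.243). Slc38a2, the sodium-coupled neutral amino acid carrier induced on amino acid withdrawal, read 629 and 834.5 in EV, 661.4 and 408.1 in Nanog and 387.9 and 527.6 in Nanog+Sin3a. Its Nanog arrays overlapped EV, its difference with Nanog plus Sin3a was -0.68 (adjusted p = 0.173), and a second, similarly bright probe gave 0.0855. Slc7a2, Slc7a6, Slc38a1, Slc38a4 and Slc6a9 had log2 differences between -0.59 and 0.36 in these comparisons.

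**Figure D2:**
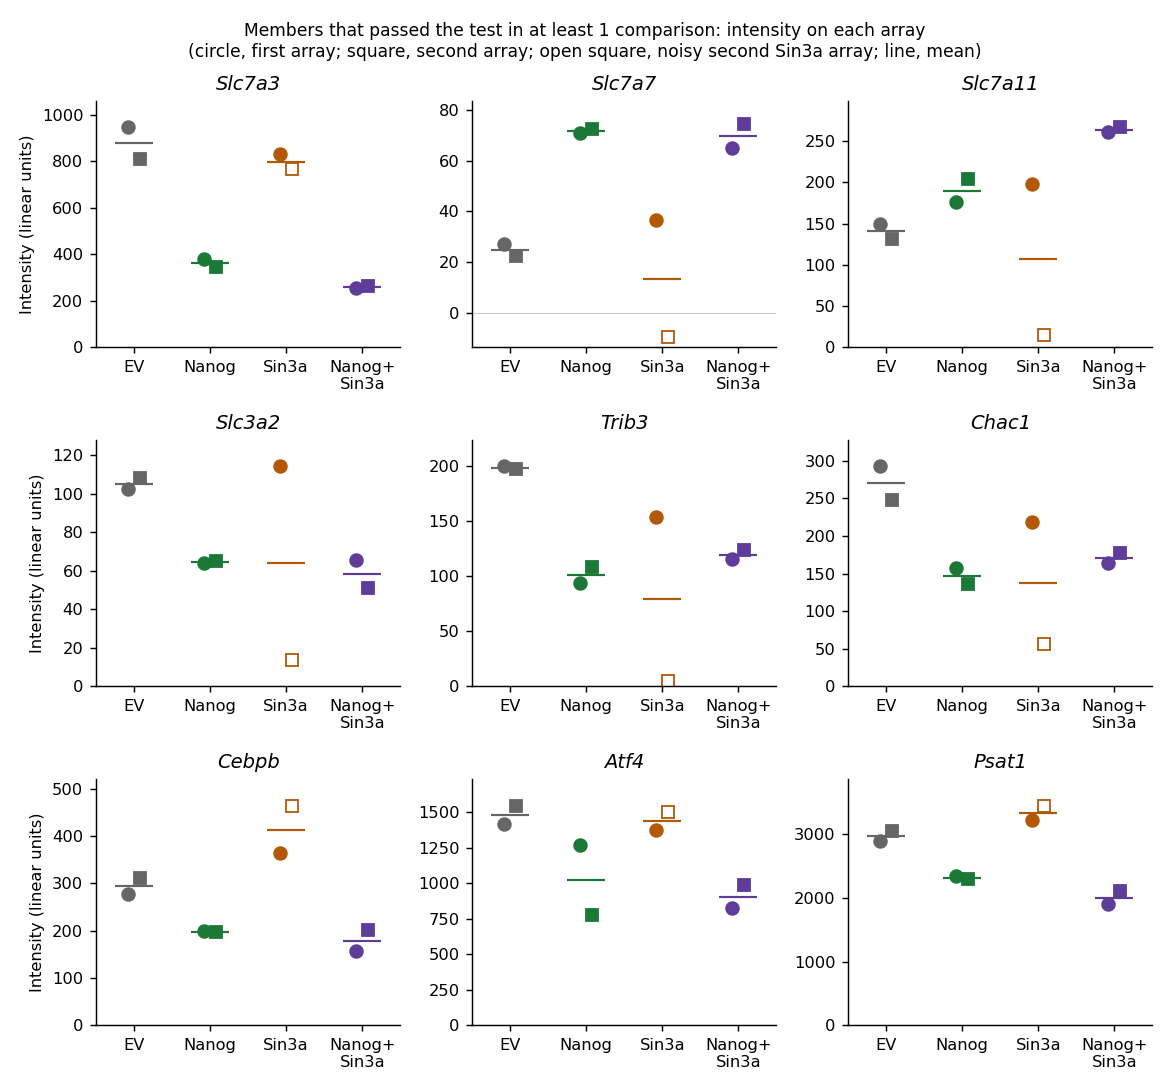
Deposited intensity in linear units (vertical axis) of 9 genes, by group (horizontal axis). These passed in the fit chosen for at least 1 comparison, on 7 arrays or, where the Sin3a group was compared, on bright features. Asns and Slc38a2, which passed against EV only among bright features, are not shown. Circles mark the first and squares the second array of a group, an open square the noisy second Sin3a array, and a line the mean of both arrays. Slc7a3 is at 252.5 to 377.5 on the 4 Nanog arrays and at 766.2 to 945.9 on the other 4, while Slc7a7 is at 65.1 to 74.6 on the Nanog arrays and below 37 on the others.

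Among the 12 stress factors, 11 were tested. Trib3, a pseudokinase that binds ATF4 and restrains it, and Chac1, which degrades glutathione, fell in both comparisons with EV, and Cebpb, a partner of ATF4, fell with Nanog plus Sin3a. None of the 11 rose. Ddit3, which encodes the pro-apoptotic factor CHOP, and Ddit4, an inhibitor of mTORC1, had positive differences that did not pass.

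Trib3 read 199.5 and 197.1 in EV, 93.4 and 108.4 in Nanog, 153.7 and 4.7 in Sin3a and 115.1 and 123.2 in Nanog+Sin3a. The EV arrays were the highest of the 8, and the groups with Nanog did not overlap them. Trib3 fell by 0.98 on the log2 scale with Nanog (SE 0.13, 1.97-fold lower, adjusted p = 0.0205) and by 0.74 with Nanog plus Sin3a (SE 0.13, 1.67-fold lower, adjusted p = 0.0295). A second Trib3 probe read 25.4 and 22.3 in EV and was at the floor on the 4 Nanog arrays, so its difference of -0.57 is limited by the floor.

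Chac1 read 292.7 and 247.5 in EV, 157.8 and 135.5 in Nanog, 218.3 and 55.8 in Sin3a and 163.7 and 177.4 in Nanog+Sin3a. Here too EV lay above all 4 Nanog arrays. The log2 fall was 0.88 with Nanog (log2 difference -0.88, SE 0.14, 1.84-fold lower, adjusted p = 0.0320) and 0.66 with both transgenes (log2 difference -0.66, SE 0.14, 1.58-fold lower, adjusted p = 0.0443).

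Cebpb read 277.8 and 311.2 in EV, 198.5 and 196.6 in Nanog, 363.3 and 464.3 in Sin3a and 156.4 and 201.1 in Nanog+Sin3a. The order ran from the Sin3a arrays through EV to the 4 Nanog arrays, which were the lowest. Cebpb fell by 0.73 with Nanog plus Sin3a (SE 0.15, 1.66-fold lower, adjusted p = 0.0383), and its difference with Nanog alone was -0.57 (adjusted p = 0.106). Atf4 itself read 1417.5 and 1547.3 in EV, 1271.9 and 776.8 in Nanog, 1372.3 and 1502.8 in Sin3a and 824.9 and 989.7 in Nanog+Sin3a. All 4 Nanog arrays were below all 4 without Nanog, but the Nanog arrays differed widely from each other, and the differences of -0.58 and -0.71 from EV did not pass in 7 arrays (adjusted p = 0.232 and 0.111). A second, dimmer Atf4 probe read 106.5 and 96.4 in EV, 90.5 and 79 in Nanog and 93.7 and 72.8 in Nanog+Sin3a. Its differences from EV were -0.26 and -0.29 and did not pass. ATF4 is controlled largely at translation, which arrays do not measure.

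Ddit3 was low, at 32.9 and 35.1 in EV, 49.7 and 71.6 in Nanog and 42.2 and 54.8 in Nanog+Sin3a, with log2 differences of 0.81 and 0.50 (adjusted p = 0.147 and 0.260). EV lay below both groups without overlap, as it lay below Nanog for 3231 and below Nanog+Sin3a for 3543 of 12886 features. These values were positive, while those of Trib3 and Chac1, which ATF4 and CHOP are known to induce, were negative. Ddit4 had differences of 0.43 and 0.49, with its Nanog+Sin3a arrays at 94.5 and 167 overlapping EV at 95.1 and 83.8. Vldlr, a lipoprotein receptor induced by ATF4, had differences of -0.60 and -0.84 (adjusted p = 0.200 and 0.0673), but its representing probe was the brightest only through the noisy Sin3a array. The probe that was brightest over the other 7 arrays read 57.5 and 53.7 in EV against 10.4 to 25.3 on the 4 Nanog arrays, and passed in both comparisons (adjusted p = 0.0366 and 0.0304), a choice made after seeing the data. Atf5, Cebpg and Nupr1 lay between -0.16 and 0.06 in both comparisons, and Sesn2 was at -0.26 in each with its Nanog arrays at the floor.

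Of the 8 synthesis enzymes, 6 were tested, and in 7 arrays only Psat1, which makes phosphoserine on the serine pathway, passed against EV. Psat1 read 2882.5 and 3051.6 in EV, 2335.2 and 2296.7 in Nanog, 3215.8 and 3442.6 in Sin3a and 1902.9 and 2098.7 in Nanog+Sin3a. The Sin3a arrays were the highest, EV next, Nanog below EV and Nanog+Sin3a lowest, with no overlap between neighbouring groups. The fall with Nanog plus Sin3a was 0.57 (log2 difference -0.57, SE 0.09, 1.48-fold lower, adjusted p = 0.0174), and Nanog alone gave -0.36 (adjusted p = 0.0929). Asns, asparagine synthetase, read 1961.8 and 1712.1 in EV, 1525.7 and 1094.3 in Nanog, 1262.6 and 1505.6 in Sin3a and 1388.3 and 1365 in Nanog+Sin3a. EV was highest, the other 3 groups overlapped one another, and the differences of -0.50 and -0.41 did not pass in 7 arrays (adjusted p = 0.163 and 0.171). The probes of Mthfd2, the mitochondrial folate enzyme, disagreed. The brightest ranged from 1803.8 to 2266.8 over the 8 arrays, with all groups overlapping EV. The second read 306.3 and 422.2 in EV, 297.7 and 230.9 in Nanog, 367.2 and 459 in Sin3a and 209.6 and 189 in Nanog+Sin3a. On that probe the 4 arrays with Nanog lay below the other 4, with differences from EV of -0.46 and -0.85 that did not pass (adjusted p = 0.273 and 0.0560). Phgdh, Shmt2 and Aldh18a1, which act in serine, glycine and proline synthesis, had differences between -0.45 and -0.23.

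Counted over the set, Nanog against EV changed 4 of 29 genes, 1 up and 3 down, where 2.69% of all features passed (1.44% up and 1.25% down). Nanog+Sin3a against EV changed 8 of 29, 2 up and 6 down, where 7.45% passed (3.78% up and 3.67% down). All 4 genes that passed with Nanog also passed with Nanog plus Sin3a, but these comparisons share the EV arrays. The median log2 difference of the 29 tested genes, some of which passed the filter only through their higher group, was -0.36 with Nanog and -0.26 with Nanog plus Sin3a, against 0.00 and 0.01 over all features. By role, stress factors gave 0 up and 2 down with Nanog and 0 up and 3 down with Nanog plus Sin3a. Enzymes gave 0 and 0, then 0 and 1. Carriers gave 1 and 1, then 2 and 2. In the fit of all 8 arrays, an unadjusted p under 0.05 with Nanog was reached by 7 of the 29 genes and by 1051 of 13687 features.

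These calls rest on few arrays. With Nanog against EV no gene passed once either EV array or either Nanog array was left out (adjusted p of the 4 genes 0.0906 to 0.277), and of the 4 only Slc7a3 passed without the first or the second Nanog+Sin3a array (adjusted p = 0.0479 and 0.0496), while the 4 differences kept their direction. In Nanog+Sin3a against EV no gene passed without either EV or either Nanog+Sin3a array (adjusted p of the 8 genes 0.0587 to 0.291), 3 passed without the first Nanog array and 5 without the second, and with the noisy Sin3a array in the fit 0 genes passed with Nanog (7 at an unadjusted p under 0.05, with 0% of all features passing) and 2 with Nanog plus Sin3a, namely Slc7a3 and Psat1 (0.256% of all features).

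**Figure D3:**
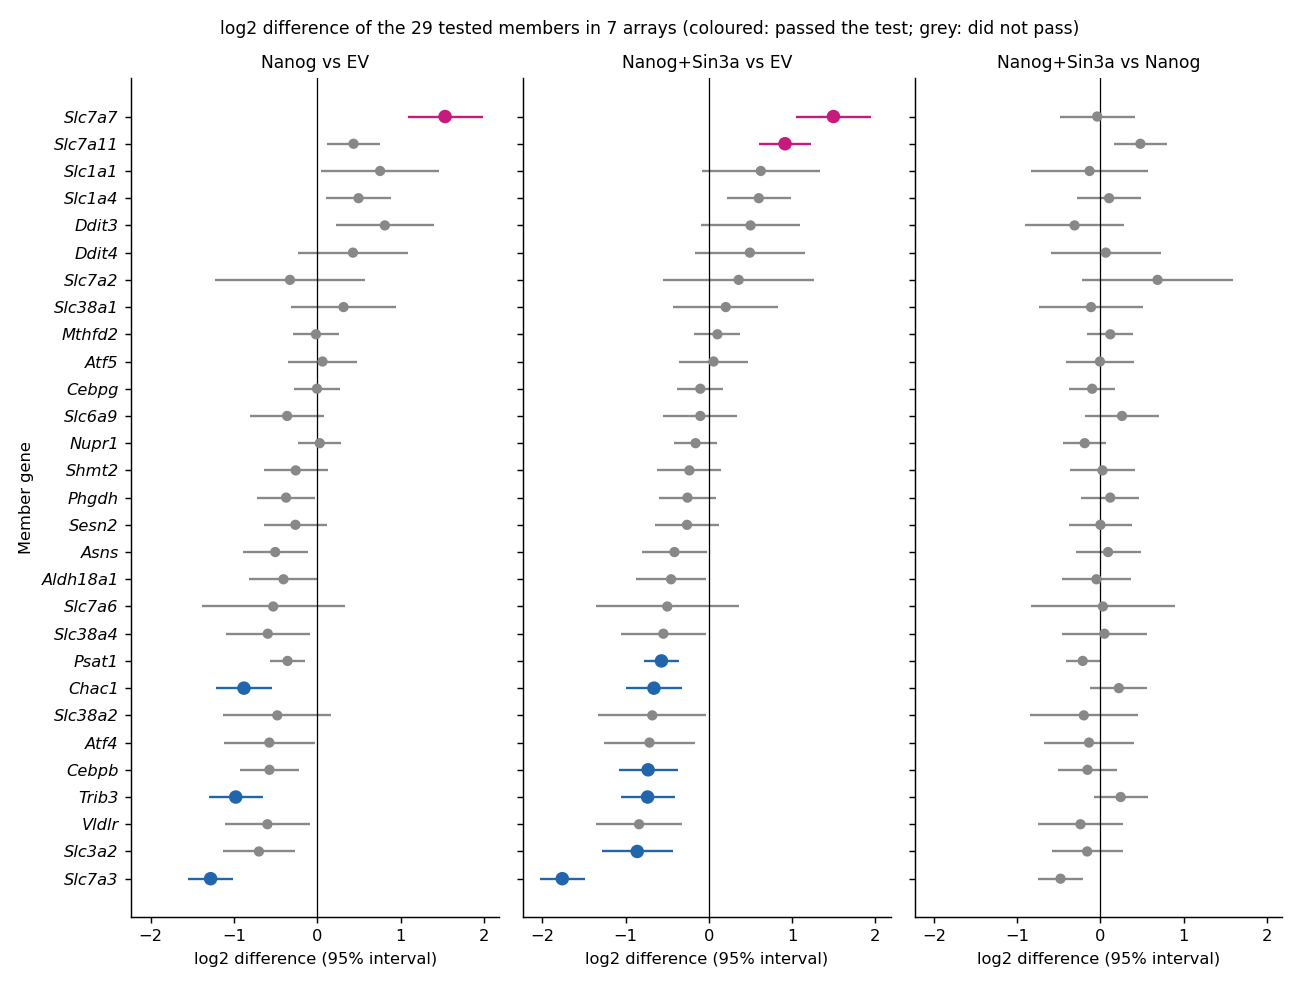
Log2 difference (horizontal axes, points, with 95% intervals as lines) of the 29 tested genes (vertical axis) in 3 comparisons on 7 arrays, with genes that passed the test in colour and the others in grey. Slc7a7 at 1.54 and 1.50 and Slc7a3 at -1.28 and -1.76 lie farthest from 0 in the comparisons with EV, and no gene is coloured in Nanog+Sin3a against Nanog.

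Adding Sin3a to Nanog changed 0 of the 29 genes by limma in 7 arrays, where 0.0155% of all features passed. An unadjusted p under 0.05 was reached by 3 of the 29, namely Slc7a3, Slc7a11 and Psat1, and by 1413 of the 12886 features. In 8 arrays or among the 6 bright genes 0 passed (0% and 0.261% of those features). Slc7a3 was lower in both Nanog+Sin3a arrays than in both Nanog arrays, with a difference of -0.48 (95% interval -0.75 to -0.21, adjusted p = 0.256). Slc7a11 was higher by 0.48 (95% interval 0.16 to 0.80, adjusted p = 0.290), and Psat1 differed by -0.21 (adjusted p = 0.444). The largest difference was that of Slc7a2, at 0.69 (adjusted p = 0.580), with readings near the floor of 14.8 and 11 in Nanog against 16.9 and 39.2 in Nanog+Sin3a. Ddit3 differed by -0.31 (adjusted p = 0.682). These intervals do not show that the groups are alike, since a change of 0.80 in Slc7a11 lies within its interval.

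Sin3a without Nanog was read on the 6 bright genes, Atf4, Asns, Psat1, Mthfd2, Nupr1 and Slc38a2. Against EV 0 of 6 passed by limma on 8 arrays, where 0.174% of the bright features passed. An unadjusted p under 0.05 was reached by 1 of the 6 and by 180 of the 2300 bright features. That 1 gene was Asns, with a difference of -0.41 (SE 0.14, 95% interval -0.70 to -0.12, adjusted p = 0.463). Psat1 differed by 0.17, Slc38a2 by -0.13 and Mthfd2 by 0.11.

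With Sin3a in both groups, the presence of Nanog lowered 2 of the 6 bright genes and raised none, where 11.6% of the bright features passed and 5.96% passed downward. Psat1 fell by 0.74 from its Sin3a level (SE 0.10, 1.67-fold lower, adjusted p = 7.05e-05). Atf4 fell by 0.67 (SE 0.16, 1.59-fold lower, adjusted p = 0.0117) on its brightest probe. A second, dimmer Atf4 probe did not show this fall. It read 75.4 and, on the noisy array, 36.4 in Sin3a against 93.7 and 72.8 in Nanog+Sin3a. Slc38a2 differed by -0.54 (adjusted p = 0.0734), Nupr1, a stress-induced chromatin protein, by -0.17, Mthfd2 by -0.01 on its brightest probe and Asns by 0.00. The Atf4 call was lost without the second Sin3a array (adjusted p = 0.137) and without the first Nanog+Sin3a array (adjusted p = 0.147), while Psat1 passed without any 1 array. In 7 arrays over all features, 3 of 29 genes passed, all downward, where 1.94% of features passed (0.846% downward): Slc7a3 at -1.68 (adjusted p = 0.00709), Cebpb at -1.03 (adjusted p = 0.0495) and Psat1 at -0.69 (adjusted p = 0.0372). With the noisy array kept, Slc7a3 and Psat1 passed among all features (0.139% of which passed).

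The difference between the Sin3a effect with and without Nanog was tested directly. On the bright genes 0 of 6 passed by limma on 8 arrays, where 0.0435% of features passed. An unadjusted p under 0.05 was reached by 2 of the 6 and by 150 of the 2300 bright features. Asns had the largest value, 0.50 (adjusted p = 0.713), since it was lower than EV with Sin3a alone and close to the Nanog level with both. Psat1 was at -0.38 (adjusted p = 0.654), Nupr1 at -0.20 and Atf4 at -0.09. Without the first Nanog array the Asns value was 0.74 and passed (adjusted p = 0.0172).

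Set against the 3 usable arrays without Nanog, the 4 arrays with it changed 7 of 29 genes, 1 up and 6 down, where 8.02% of all features passed (3.89% up and 4.13% down). On the side without Nanog, the lone usable Sin3a array weighed as much as both EV arrays together. Slc7a7 was the rise, at 1.23 (SE 0.15, adjusted p = 0.00702). Slc7a3 fell by 1.48 (SE 0.09, adjusted p = 0.000857) and Slc3a2 by 0.84 (SE 0.14, adjusted p = 0.0204). Among the stress factors Cebpb fell by 0.80 (SE 0.12, adjusted p = 0.0130), Trib3 by 0.67 (SE 0.11, adjusted p = 0.0168) and Chac1 by 0.62 (SE 0.11, adjusted p = 0.0258). The enzyme Psat1 fell by 0.52 (SE 0.07, adjusted p = 0.00911). Slc1a1 at 0.68, Slc38a4 at -0.62, Ddit4 at 0.60 and Atf4 at -0.59 (adjusted p = 0.100) did not pass. The second Atf4 probe was at -0.065. Without either EV array none of the 7 passed (adjusted p 0.0568 to 0.150), and of the 7, 4 passed when Nanog array 1 was left out, 3 when Nanog array 2 was, 5 when Nanog+Sin3a array 1 was and 4 when Nanog+Sin3a array 2 was. With the noisy array included, Slc7a3 and Psat1 passed (0.979% of all features) and Trib3 turned to 0.14, and on the bright features Atf4, Psat1 and Slc38a2 passed (26.5% of them).

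On the 6 bright genes all 8 arrays could also be used for Nanog against EV. There Atf4 fell by 0.58 (adjusted p = 0.0347), Asns by 0.50 (adjusted p = 0.0290) and Psat1 by 0.36 (adjusted p = 0.0318), so that 3 of 6 passed where 9.65% of the bright features did. Against EV, Nanog+Sin3a lowered 4 of the 6, where 17% of the bright features passed: Atf4 (adjusted p = 0.00606), Asns (adjusted p = 0.0466), Psat1 (adjusted p = 0.000657) and Slc38a2 (adjusted p = 0.0232). In this narrower set of features Atf4 and Asns passed, which they did not among all features in 7 arrays. On second probes in 7 arrays, Atf4 differed by -0.26 with Nanog and -0.29 with Nanog plus Sin3a. Asns differed by -0.15 and -0.35, and none of these values passed.

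Genes of the wider pathway were read from 7 further lists in the same fits by limma in 7 arrays. There an unadjusted p under 0.05 was reached by 2517 of 12886 features with Nanog and by 3345 with Nanog plus Sin3a. After adjustment 2.69% and 7.45% of all features passed. Among 15 tested genes of a list around eIF2 and its stress response, 0 passed with Nanog (3 at an unadjusted p under 0.05). With Nanog plus Sin3a 1 passed, the kinase Eif2ak2, which rose by 0.59 (adjusted p = 0.0319). Eif4ebp1, a translation repressor induced by ATF4, had the largest value with Nanog, -0.54 (adjusted p = 0.150). Of 20 genes of the unfolded protein response in the endoplasmic reticulum, 0 passed in either comparison with EV (3 and 4 at an unadjusted p under 0.05). Its chaperone Hspa5 differed by -1.36 and -1.55 (adjusted p = 0.166 and 0.0858). Of 19 tRNA synthetases 0 passed in either comparison (2 and 6 at an unadjusted p under 0.05), with Cars at -0.68 and -0.87 (adjusted p = 0.376 and 0.203). Of 14 other amino acid carriers 0 passed (2 and 5 at an unadjusted p under 0.05), with Slc16a10, a carrier of aromatic amino acids, at 0.92 with Nanog plus Sin3a (adjusted p = 0.0581).

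Ass1 and Castor1, which act in the synthesis and sensing of arginine, rose in both comparisons with EV, and Cth, which makes cysteine from cystathionine, fell in both. Of 17 further enzymes of serine, glycine, folate and neighbouring pathways, 1 rose and 1 fell with Nanog, and 1 rose and 2 fell with Nanog plus Sin3a. The share of all features that passed was 2.69% with Nanog and 7.45% with Nanog plus Sin3a. Ass1, argininosuccinate synthetase, read 121.6 and 110.1 in EV, 239.9 and 287.7 in Nanog and 308.7 and 370 in Nanog+Sin3a, and rose by 1.18 and 1.55 (adjusted p = 0.0158 and 0.00540). Cth read 432.8 and 387 in EV against 200.2 to 248 on the 4 Nanog arrays, and fell by 0.88 and 0.89 (adjusted p = 0.0311 and 0.0194). For both genes EV and the Nanog groups did not overlap. The second enzyme that fell with Nanog plus Sin3a was Ahcy, by 0.39 (adjusted p = 0.0458), and a second probe of it gave 0.0784. Of 25 genes of amino acid sensing, only Castor1 passed, with rises of 0.61 and 0.89 (adjusted p = 0.0398 and 0.00850). Of 17 targets of Nrf2, a transcription factor that also induces Slc7a11, 0 passed with Nanog (6 at an unadjusted p under 0.05), and Nqo1 rose by 0.75 with Nanog plus Sin3a (adjusted p = 0.0159). Each call named here from the 7 lists was lost without either EV array (adjusted p 0.120 to 0.333), and 0 genes of these lists passed between Nanog+Sin3a and Nanog.

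Among bright features of these lists, Sin3a against EV gave 0 calls (0 at an unadjusted p under 0.05). Against Sin3a, where 11.6% of the bright features passed, Nanog+Sin3a lowered 1 of 6 genes of the eIF2 list, Eif4ebp1, by 0.49 (adjusted p = 0.0265). Of 10 tRNA synthetases it raised 2, Vars by 0.64 and Gars by 0.40 (adjusted p = 0.00349 and 0.00824), and lowered Iars by 0.37 (adjusted p = 0.0440). Of 7 Nrf2 targets it raised 1, the pentose phosphate enzyme Tkt, by 0.54 (adjusted p = 0.00626), and lowered the ferritin chains Ftl1 and Fth1 by 0.38 and 0.25 (adjusted p = 0.0109 and 0.0493). The other 4 lists had 0 calls, with 0 or 1 gene each at an unadjusted p under 0.05, which 666 of the 2300 bright features reached.

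Marker lists of other cell states differed between the same groups, mostly through 1 or a few genes each. The summed intensity of 16 pluripotency markers was 2541.5 to 2616.5 in EV, 3453.1 to 3966.3 in Nanog and 3025.7 to 3084.6 in Nanog+Sin3a, with 4 at the floor on 7 arrays. That sum holds the Nanog transgene, and without it the sums were 3088.3 to 3480.5 in Nanog and 2736.2 to 2799.4 in Nanog+Sin3a. Gdf3 read 947.7 and 911.4 in EV against 1249.7 to 1894.4 on the 4 Nanog arrays, Pou5f1 overlapped between the groups, and Sall4 read 258.2 and 226.1 in EV against 88.5 to 171.1.

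The sum of 7 primitive endoderm markers was 1299.7 to 1404.3 in EV, 864 to 1083.8 in Nanog and 755.2 to 789.9 in Nanog+Sin3a, nearly all of it Dab2, with Gata4, Gata6, Sox17 and Foxa2 at the floor on 7 arrays. The sum of 10 mesenchymal markers was 475.3 to 490.8 in EV, 689.9 to 787.6 in Nanog and 658.9 to 718.9 in Nanog+Sin3a, with 5 at the floor, and Thy1 made up much of it. The sum of 10 neural stem cell markers was 2972.6 to 3000.8 in EV, 3143.9 to 3260.1 in Nanog and 3280.4 to 3444.1 in Nanog+Sin3a, where Vim was higher and Egfr and Nes lower than in EV. The sum of 6 trophectoderm markers, nearly all of it Krt8, was 1167.6 to 1172.1 in EV, 867.9 to 883.6 in Nanog and 939.4 to 1245.6 in Nanog+Sin3a. The sum of 5 endothelial markers was 83.3 to 104.4 in EV, 111.7 to 113.7 in Nanog and 123 to 153.2 in Nanog+Sin3a. That of 7 neuronal markers, mostly Stmn2, overlapped EV in both groups. Astrocyte or oligodendrocyte and blood or myeloid markers summed to at most 25.5 and 41.5 in these 3 groups. Their part in the changes of the 9 genes was not tested, and in bulk RNA fewer cells of a type and less RNA per cell cannot be told apart.

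The promoters of the set were searched for the core of the composite element that ATF4 and C/EBP proteins bind. RefSeq windows from 250 bases before to 50 after an annotated start (build GRCm38.p6) were found for 30 of the 35 genes, 43 windows in all. The core TGATGNAA, or TTNCATCA on the other strand, was in 11 of the 43 windows (25.6%), against 3.97% of all 32851 windows, and belonged to 10 genes: Atf3, Trib3, Chac1, Asns, Pycr1, Vldlr, Nupr1, Slc7a7, Slc7a11 and Slc1a4. Of the genes that passed in the fit chosen for at least 1 comparison, 8 had a window. The core was in 4 of these, namely Trib3, Chac1, Slc7a7 and Slc7a11. Asns, which holds the core, and Slc38a2, which does not, passed against EV only among bright features and are not counted. Slc7a7 and Slc7a11 rose where Trib3 and Chac1 fell, so genes with the core moved in both directions. A match is a description of letters and not a site shown to be bound.

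The windows of these 4 genes, and of Asns, whose element is the textbook case, are shown 5′ to 3′ on the strand of the gene, with matches to the core in capitals. They are Trib3 at chr2:152344011-152344310 (minus strand), Chac1 at chr2:119350992-119351291 (plus), Slc7a11 at chr3:50443564-50443863 (minus), Slc7a7 at chr14:54417895-54418194 (minus) and Asns at chr6:7693160-7693459 (minus).
Trib3: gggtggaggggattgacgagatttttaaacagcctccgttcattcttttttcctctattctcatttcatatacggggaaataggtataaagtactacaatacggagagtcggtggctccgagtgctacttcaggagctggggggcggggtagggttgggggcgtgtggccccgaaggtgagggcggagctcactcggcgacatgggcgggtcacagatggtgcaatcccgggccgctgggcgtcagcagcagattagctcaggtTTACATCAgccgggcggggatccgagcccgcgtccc
Chac1: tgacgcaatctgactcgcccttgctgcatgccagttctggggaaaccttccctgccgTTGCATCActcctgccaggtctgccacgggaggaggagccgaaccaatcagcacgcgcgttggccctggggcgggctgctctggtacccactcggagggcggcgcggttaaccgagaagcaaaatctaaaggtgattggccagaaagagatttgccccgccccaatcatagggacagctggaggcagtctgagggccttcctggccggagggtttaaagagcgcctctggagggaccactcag
Slc7a11: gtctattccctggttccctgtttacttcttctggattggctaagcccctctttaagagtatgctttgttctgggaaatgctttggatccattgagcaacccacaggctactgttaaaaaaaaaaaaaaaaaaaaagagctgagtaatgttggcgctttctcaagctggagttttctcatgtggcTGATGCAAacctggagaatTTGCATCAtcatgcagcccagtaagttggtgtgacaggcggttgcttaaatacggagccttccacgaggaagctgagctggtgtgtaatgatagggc
Slc7a7: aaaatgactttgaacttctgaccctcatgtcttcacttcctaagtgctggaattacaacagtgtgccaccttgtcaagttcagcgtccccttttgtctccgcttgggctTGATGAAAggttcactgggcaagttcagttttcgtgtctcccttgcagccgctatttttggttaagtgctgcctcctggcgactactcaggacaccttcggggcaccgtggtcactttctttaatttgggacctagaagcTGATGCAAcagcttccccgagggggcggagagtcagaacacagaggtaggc
Asns: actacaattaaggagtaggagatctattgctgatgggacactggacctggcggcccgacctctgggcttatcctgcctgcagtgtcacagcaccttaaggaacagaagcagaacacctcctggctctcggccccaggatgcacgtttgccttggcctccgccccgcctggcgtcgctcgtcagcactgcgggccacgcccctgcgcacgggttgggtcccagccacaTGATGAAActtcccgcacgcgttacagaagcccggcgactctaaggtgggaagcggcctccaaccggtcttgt

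In Slc7a11 there are 2 matches facing each other, 66 and 47 bases before the start. In Trib3 the match begins 14 bases after the start, in Chac1 193 before it and in Asns 23 before it. Slc7a7 has matches 141 bases and 1 base before this start, and the latter also falls 243 bases before another annotated start of the same gene. The core of the antioxidant response element bound by Nrf2 is TGACNNNGC, or GCNNNGTCA on the other strand. It was in 11 of the 43 windows (25.6%), against 12.4% of all windows, with 1 Slc7a6 site counted in 2 windows. These windows belonged to 9 of the 30 genes, and of the 8 that passed in a chosen fit only Cebpb held it. Asns and Slc38a2, which passed against EV only among bright features, also held it.

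**Figure D4:**
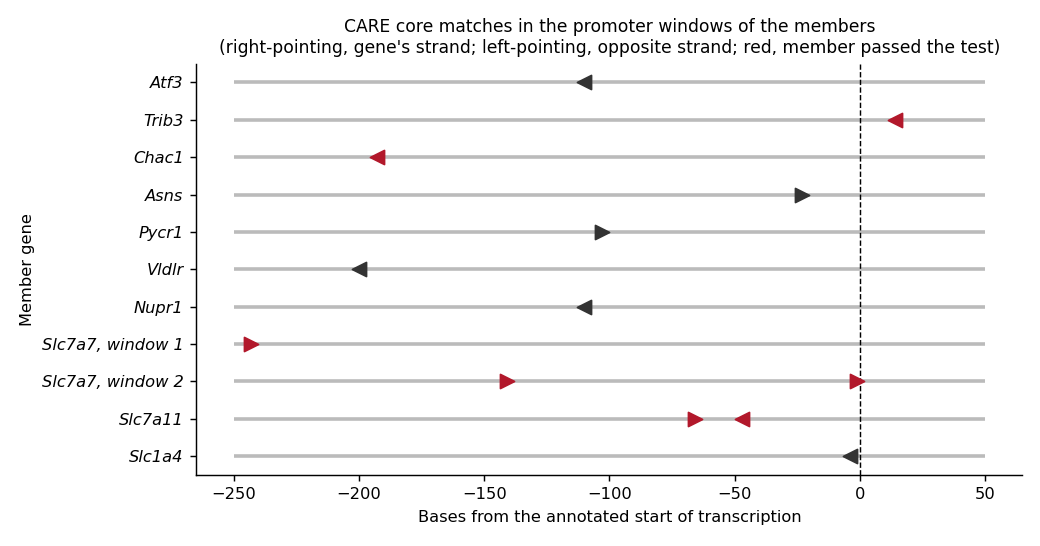
Position of matches to TGATGNAA in the promoter windows of the 10 genes that hold 1. Triangles point right on the strand of the gene and left on the opposite strand. The horizontal axis gives bases from the annotated start of transcription, with a dashed line at 0. Genes that passed in the fit chosen for at least 1 comparison are in red. Asns, which passed against EV only among bright features, is not counted among them. Slc7a11 holds a pair of matches, at 66 and 47 bases before the start, and the Trib3 match lies 14 bases after it.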

How the data were processed

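RNA of mouse pre-iPSCs was measured on 8 Illumina bead arrays in 4 groups of 2. The deposited values are intensity per probe for 45281 probes, made with GenomeStudio per the submitters' processing notes, with version and settings not given in the sources used here. Deposited intensity was linear, from -24 to 14965.3, and negative for 47.28% to 47.65% of probes, which shows background subtraction. Sorted values of 7 arrays lay within 0.621% of the median quantile above the floor, and those of the second Sin3a array within 4.05%, so the values were kept without further normalisation. For arrays, their number limits the precision.

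Values below 16 were set to 16 before taking log2. A single gene symbol was annotated for 34885 probes, more than 1 for 18 and none for 10378, and a RefSeq gene table changed 0 symbols. The probe of highest mean intensity over 8 arrays stood for its gene. Features above the floor on at least 2 arrays were tested with limma 3.58.1 in R 4.3.3 (lmFit, eBayes with an intensity trend, 1 coefficient per group, two-sided), with Benjamini-Hochberg adjustment at 0.05 over all features. Nanog and Nanog+Sin3a against EV, Nanog+Sin3a against Nanog, and arrays with against without Nanog used 7 arrays (12886 features, 3 residual degrees of freedom). In the last of these, the EV group and the lone Sin3a array had equal weight on the side without Nanog. The 3 other comparisons used 8 arrays and features of mean log2 above 9 (2300 features, 4 residual degrees of freedom).

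The genes, lists and settings were chosen with earlier results of these data known. Genes that passed in the fits named above are given with their values on every array. In each comparison the 4 with the largest differences that did not pass are given as values. Other genes are given by range or where they complete a role. From each pathway list, up to 3 genes that passed, or 1 value where none did, are named. Alternatives were the floor, the filter, scaling, trend, array weights, probe choice, a replicate block, the bright features and leaving out each array. The code was tested on simulated data. Promoter windows are from RefSeq (GRCm38.p6).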

Additional observations from a re-analysis of the deposited data

Results flagged for a closer look

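Of the 29 tested genes, 3 were wholly higher and 7 wholly lower on both Sin3a arrays than on the EV arrays. For 4 of these genes the Nanog+Sin3a arrays were separated from the Nanog arrays in the opposite direction. Such separation is common with 2 arrays per group. Of 13687 features in 8 arrays, 1460 were wholly higher and 2791 wholly lower in Sin3a than in EV. Between Nanog+Sin3a and Nanog, 2300 were higher and 2167 lower. The share of all features separated in opposite directions was not counted. Trib3 differed by -2 on the log2 scale for Sin3a minus EV and by 0.243 for Nanog+Sin3a minus Nanog. Chac1 differed by -1.286 and 0.221. Psat1 differed by 0.166 and -0.213. Slc6a9, a glycine carrier, differed by -0.283 and 0.259. The Trib3 and Chac1 values for Sin3a rest on the noisy second Sin3a array, without which Trib3 was at -0.37 and Chac1 at -0.30. The difference between the 2 effects, tested in 7 arrays with limma, was 0.61 for Trib3 (adjusted p = 0.869), 0.52 for Chac1 (adjusted p = 0.886), -0.33 for Psat1 (adjusted p = 0.869) and 0.37 for Slc6a9 (adjusted p = 0.965), and none of these passed. Groups of 2 arrays allow no test for a single outlying array.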

How the results depend on the processing

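The count of genes that passed moved with the processing. For Nanog against EV (4 genes) it was 0 with all 8 arrays, 0 with no filter, 2 with the second-brightest probe and 0 to 4 on leaving out 1 array. For Nanog+Sin3a against EV (8 genes) it was 2 with all 8 arrays, 1 with no filter, 5 with no intensity trend, 4 of 6 on bright features and 0 to 8 on leaving out 1 array. For arrays with against without Nanog (7 genes) it was 2 with all 8 arrays, 0 with array weights, 3 of 6 on bright features and 0 to 6 on leaving out 1 array. For Nanog+Sin3a against Sin3a (2 bright genes) it was 0 with array weights over all features, 1 with the second-brightest probe and 1 to 3 on leaving out 1 array, and for the interaction (0) it was 0 to 1. Nanog+Sin3a against Nanog and Sin3a against EV gave 0 under each alternative. The cause was not tested. Leaving out an array leaves fewer residual degrees of freedom, except for the lone Sin3a array of the 7, whose group leaves the fit with it. Without that array all 4 genes passed for Nanog against EV and all 8 for Nanog+Sin3a against EV.

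Replicate numbers did not pair the arrays, since deviations of same-numbered arrays correlated at -0.059 to 0.0271 over 6 group pairs. With the replicate number as a block, 3, 5, 0 and 6 genes passed in the 4 comparisons on 7 arrays, and 0, 2 and 0 in those on bright features.

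The second-brightest probe turned Slc7a3 to 0.47, 0.64, 0.17 and 0.64 (Nanog against EV, Nanog+Sin3a against EV and against Nanog, and all Nanog arrays), Slc38a2 to 0.0855 against EV and 0.25 against Sin3a, and Ahcy to 0.0784. Trib3 turned to 0.14 over all Nanog arrays with 8 arrays, weighted or not. Differences near 0 also changed sign. On leaving out 1 array, Slc38a2 ran from -0.34 to 0.069 and Mthfd2 from -0.0014 to 0.23 for Sin3a against EV, Mthfd2 from -0.12 to 0.10 and Asns from -0.13 to 0.12 for Nanog+Sin3a against Sin3a, and the Atf4 interaction from -0.45 to 0.26. For Nanog+Sin3a against Sin3a, Mthfd2 was at 0.014 and Asns at 0.12 in 7 arrays, and Asns at 0.0041 with median centring. Of values that passed, 310 alternatives kept the call, 220 lost it in the same direction and 6 reversed, and of values that did not pass, 518 stayed so, 15 passed and 14 reversed. Scaling moved the median of all features by at most 0.012 in size.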
